A study of Mus musculus with 9 samples.

Results

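The contractile genes of smooth muscle and of myofibroblasts, fibroblasts that take on a contractile state, were followed in mouse embryonic fibroblast (MEF) cultures. The 10 genes, chosen by name from 43629 listed genes, were *Acta2*, *Actg2*, *Tpm1*, *Tpm2*, *Myh11*, *Myl9*, *Tagln*, *Cnn1*, *Lmod1* and *Myocd*. MEFs were grown from littermate E14.5 embryos, after removal of head and viscera, as one culture per embryo for 2 passages in serum-containing medium. RNA sequencing covered 4 wild-type (WT) and 5 Dp1Tyb cultures, all with the strain label C57BL/6J.129P2 and from mice backcrossed to C57BL/6JNimr. Dp1Tyb carries the duplication Dp(16Lipi-Zbtb21)1TybEmcf, an extra copy of a stretch of mouse chromosome 16 from *Lipi* to *Zbtb21*, in every cell. The sex of the embryos was not used here. All members lie outside the duplicated stretch, including *Myh11*, which is on chromosome 16 at positions 14194535 to 14291372 (GRCm38).

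In smooth muscle, force comes from myosin filaments that slide along actin filaments after phosphorylation of the myosin regulatory light chain. Tropomyosins, calponin and transgelin coat or bundle the actin filaments, and leiomodin starts new ones. Many of these genes carry CArG boxes, sites for serum response factor (SRF), which acts with myocardin or with the related MRTF cofactors, and cultured fibroblasts switch on the same genes when they spread on a stiff surface or meet TGF-beta.

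Each WT culture had 25571442 to 30009361 counts in total, and each Dp1Tyb culture 24804539 to 26782380. The prefix of the culture names in the labels, MEF1 or MEF2, splits the cultures in 2 sets whose meaning the labels do not give: WT 1 and Dp1Tyb 1 carry MEF1 and the other 7 carry MEF2. Marker genes of fibroblasts were abundant, with all 12 listed markers passing the filter on low counts and a summed level of 24141 to 48147 CPM (counts scaled to a common library size with edgeR's TMM factors). Of 16 skeletal muscle markers 6 stayed at or below 3 counts in every culture (*Myod1*, *Myog*, *Myf5*, *Myf6*, *Pax7* and *Ckm*), and the sum of the list, 5.12 to 63.2 CPM in WT and 11.6 to 230 CPM in Dp1Tyb, was highest in Dp1Tyb 2, where *Acta1* made up 223 CPM of it. Endothelial, epithelial and cardiac markers summed to at most 20.5 CPM, and pericyte markers to 157 to 278 CPM with the highest sum in Dp1Tyb 2. Most of the pericyte sum came from *Cspg4*, at 82.4 to 215 CPM, and *Notch3*, at 44.1 to 94.9 CPM. Schwann cell and neural markers summed to 81.2 to 110 CPM in WT and 52.0 to 83.3 CPM in Dp1Tyb, with 4 of 5 tested at an unadjusted p below 0.05 and 0 called in edgeR, while DESeq2 called *Erbb3*, *Foxd3* and *Sox10* of this list and *Myh3* of the skeletal list for the genotype. Their part in the results was not tested. The macrophage marker sum ranged from 60.0 to 217 CPM in WT and from 14.7 to 315 CPM in Dp1Tyb, with the lowest value in Dp1Tyb 2 and the highest in Dp1Tyb 3. In RNA from whole cultures, fewer cells of a type and less RNA per cell cannot be told apart.

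For most of the tested contractile genes, the genotype fold change was smaller than the SD between cultures of one genotype, both on the log2 scale. The 2 were about equal for *Myh11* (0.95 against 0.98) and *Actg2* (0.89 for both). All 9 members that could be tested were lowest in WT 1 and highest in Dp1Tyb 2, and in all 9 the ranges of WT and Dp1Tyb overlapped. None of the 9 differed between the genotypes in edgeR's quasi-likelihood test (adjusted p = 1.00 for each), against 24 of 14567 genes, or 0.165%, that did. At an unadjusted p below 0.05 the counts were 0 of 9 members and 456 of 14567 genes, and DESeq2 called 0 members as well. *Myocd* was too low to be tested.

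The actins of the contractile filament come first. *Acta2*, which encodes smooth muscle alpha-actin and is the usual marker of myofibroblasts, was at 851, 3125, 1946 and 2195 CPM in WT 1 to 4. In Dp1Tyb 1 to 5 it was at 2236, 4416, 1388, 2321 and 2241 CPM. WT 1 and Dp1Tyb 3 were the low cultures, WT 2 and Dp1Tyb 2 the high ones, and the other 5 lay close together in between. The means were 2029 ± 935 CPM (SD, n = 4) in WT and 2520 ± 1126 CPM (SD, n = 5) in Dp1Tyb, a log2 fold change of 0.31 with a standard error of 0.392 and a 95% interval from -0.56 to 1.19. The difference was smaller than the spread between cultures of one genotype.

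*Actg2*, the gamma-actin of enteric smooth muscle, was far lower. It was at 9.87, 45.6, 18.5 and 37.2 CPM in WT 1 to 4 and at 30.01, 108, 26.6, 48.1 and 45.1 CPM in Dp1Tyb 1 to 5. Here Dp1Tyb 4 and not WT 2 followed Dp1Tyb 2, and 4 of the Dp1Tyb values fell inside the WT range or just above it. The log2 fold change was 0.89 with a standard error of 0.517 and a 95% interval from -0.27 to 2.05, and its unadjusted p in edgeR's test, 0.116 before adjustment and 1.00 after, was the lowest among the members.

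The tropomyosins, coiled coils that lie along the actin filament and control the access of myosin, follow. *Tpm1* was at 1121, 2323, 1388 and 1420 CPM in WT 1 to 4 and at 1666, 3088, 1145, 1567 and 1569 CPM in Dp1Tyb 1 to 5. *Tpm2* was at 162, 492, 308 and 286 CPM in WT and at 301, 639, 239, 356 and 328 CPM in Dp1Tyb, for the same cultures. In both genes WT 2 and Dp1Tyb 2 stood above the other 7 cultures. The log2 fold change was 0.21 (95% interval -0.46 to 0.88) for *Tpm1* and 0.26 (95% interval -0.52 to 1.03) for *Tpm2*. Both genes make many isoforms, in muscle and non-muscle cells, and counts per gene do not separate them.

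The motor genes split by abundance. *Myh11*, the smooth muscle myosin heavy chain and the most restricted marker of differentiated smooth muscle, was at 4.31, 29.3, 6.01 and 19.9 CPM in WT 1 to 4. In Dp1Tyb 1 to 5 it was at 20.8, 48.9, 17.5, 35.8 and 20.8 CPM. WT 1 and WT 3 were below every Dp1Tyb culture, while WT 2 and WT 4 lay within the Dp1Tyb range. The means of 14.9 ± 11.9 CPM (SD, n = 4) and 28.8 ± 13.3 CPM (SD, n = 5) gave the highest log2 fold change among the members, 0.95 with a standard error of 0.561 and a 95% interval from -0.30 to 2.21, and an unadjusted p of 0.120 in edgeR's test. *Myl9*, the regulatory light chain of smooth muscle and non-muscle myosin, was at 113, 346, 213 and 248 CPM in WT and at 238, 567, 205, 311 and 301 CPM in Dp1Tyb. Its log2 fold change was 0.50 (95% interval -0.31 to 1.30), and apart from WT 1 and Dp1Tyb 2 its values lay between 205 and 346 CPM.

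The actin-binding proteins of the calponin family come next. *Tagln*, the transgelin or SM22-alpha gene, an early marker of smooth muscle, was at 474, 1849, 1064 and 1092 CPM in WT 1 to 4 and at 1046, 2614, 759, 1095 and 1059 CPM in Dp1Tyb 1 to 5. The middle 5 values, from both genotypes, lay between 1046 and 1095 CPM. *Cnn1*, calponin 1, which binds actin and slows the myosin ATPase, was at 10.6, 103, 23.2 and 46.0 CPM in WT and at 41.0, 256, 16.9, 46.2 and 31.5 CPM in Dp1Tyb. Its mean in Dp1Tyb, 78.4 ± 100.1 CPM (SD, n = 5), was above its mean in WT, 45.8 ± 41.0 CPM (SD, n = 4), while 4 of the 5 Dp1Tyb cultures were at or below 46.2 CPM. The log2 fold change was 0.23 (95% interval -0.73 to 1.19) for *Tagln* and 0.78 (95% interval -1.16 to 2.72) for *Cnn1*, the widest interval of the group.

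*Lmod1*, leiomodin 1, which nucleates actin filaments in smooth muscle, was at 12.1, 39.8, 21.1 and 39.5 CPM in WT 1 to 4. It was at 29.7, 66.3, 14.8, 35.8 and 31.4 CPM in Dp1Tyb 1 to 5. WT 4 was close to WT 2 here, and the log2 fold change was 0.34 (95% interval -0.66 to 1.33). *Myocd*, which encodes myocardin, the cofactor that drives SRF at smooth muscle genes, had 6, 10, 6 and 8 reads in WT 1 to 4 and 6, 4, 3, 3 and 4 reads in Dp1Tyb 1 to 5. With 30 reads over 4 WT and 20 reads over 5 Dp1Tyb cultures it failed the filter on low counts, and 2 values sit at the floor of 3 counts. Tested without the filter, it had a log2 fold change of -0.82 with a standard error of 0.379 and an adjusted p of 0.880 in edgeR (0.0538 unadjusted). It was the one member whose estimate was below 0, and its highest culture was WT 2.

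**Figure D1:**
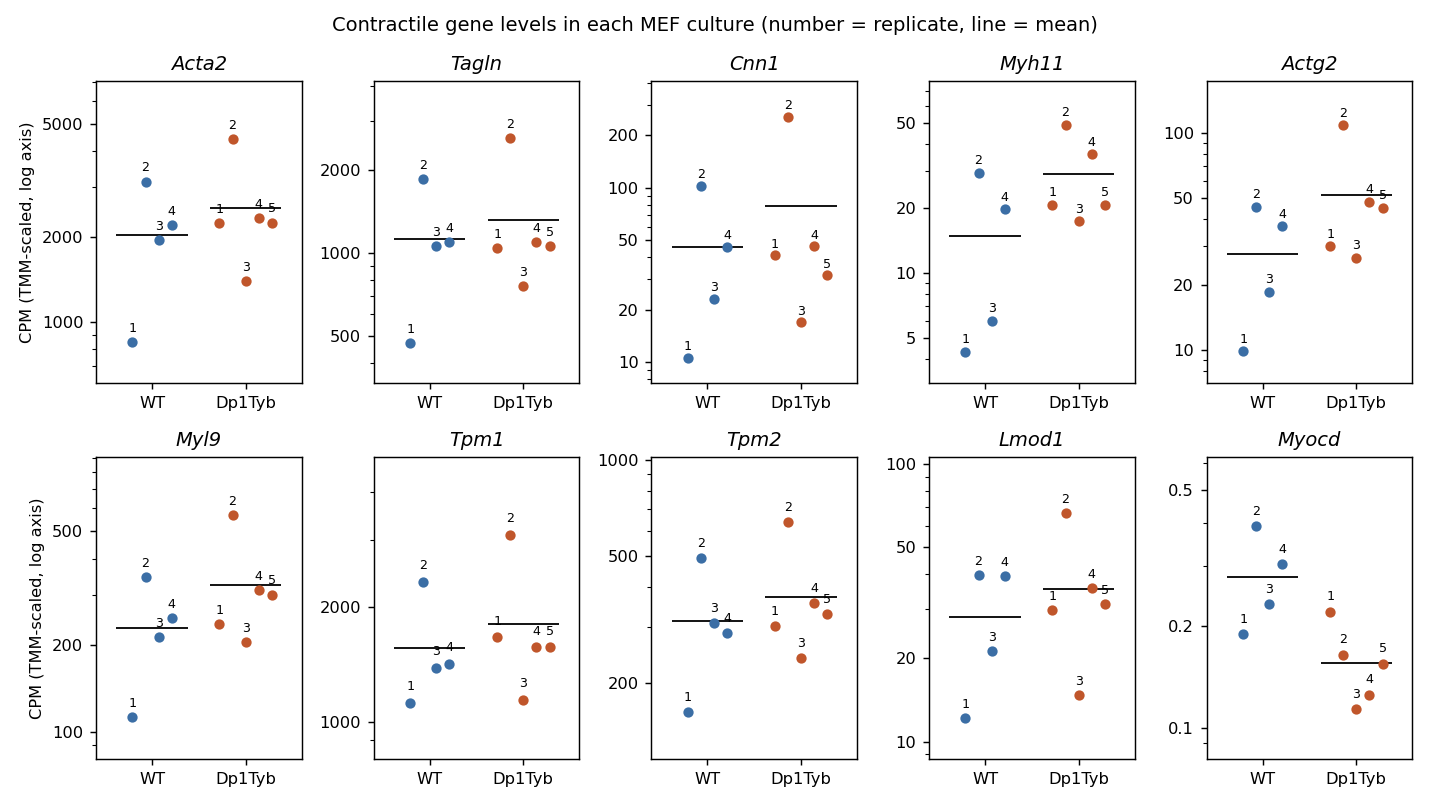
Level of each contractile gene (CPM on a log axis) in the 4 WT and 5 Dp1Tyb cultures, with points numbered by replicate and a line at each mean. Culture Dp1Tyb 2 is highest and WT 1 lowest in every panel but *Myocd*, and the genotypes overlap in all panels.

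Per kilobase of exon (RPKM), the levels ran over a wide scale. *Acta2* had the highest level, 1048 ± 462 RPKM (SD, n = 9), followed by *Tagln* at 618 ± 319, *Tpm1* at 262 ± 97.1, *Myl9* at 243 ± 109 and *Tpm2* at 119 ± 48.6 RPKM. The 5 lower members were *Actg2* at 26.3, *Cnn1* at 23.4, *Lmod1* at 8.18, *Myh11* at 2.97 and *Myocd* at 0.0327 RPKM. The lowest of these, *Lmod1*, *Myh11* and *Myocd*, are among the genes most restricted to muscle. Although the spreads of neighbours in this order overlap, the order was kept within single cultures: *Acta2* was 1.53 to 1.93 times *Tagln* in 9 of 9 cultures, and *Lmod1* was above *Myh11* in 9 of 9. The exceptions were *Tpm1* over *Myl9*, which held in 6 of 9 cultures, and *Actg2* over *Cnn1*, which held in 7 of 9. Thus *Cnn1* passed *Actg2* in the 2 cultures where both were highest among the WT and among the Dp1Tyb cultures.

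The fold changes between the genotypes were positive in 9 of 9 tested members, with a median of 0.34, against 51.0% positive and a median of 0.0027 over all tested genes. As the members moved together from culture to culture, these 9 values are not independent. Leaving out Dp1Tyb 2 turned *Cnn1* to -0.43, *Tagln* to -0.18, *Tpm1* to -0.073, *Tpm2* to -0.028 and *Lmod1* to -0.012, so that 4 of 9 were positive. Without WT 1, *Tagln* was at -0.021. Without WT 2, 9 of 9 were positive, between 0.46 and 1.56 with a median of 0.60. Without both cultures numbered 2, a choice made after seeing the data, 9 of 9 were positive, between 0.18 and 1.24 with a median of 0.30. Within the MEF2 cultures alone, 3 WT and 4 Dp1Tyb, the 9 fold changes were between 0.05 and 0.75 with a median of 0.15. In the MEF1 pair, 1 culture of each genotype and so without a test, Dp1Tyb 1 was above WT 1 by 0.57 to 2.24 on the log2 scale.

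**Figure D2:**
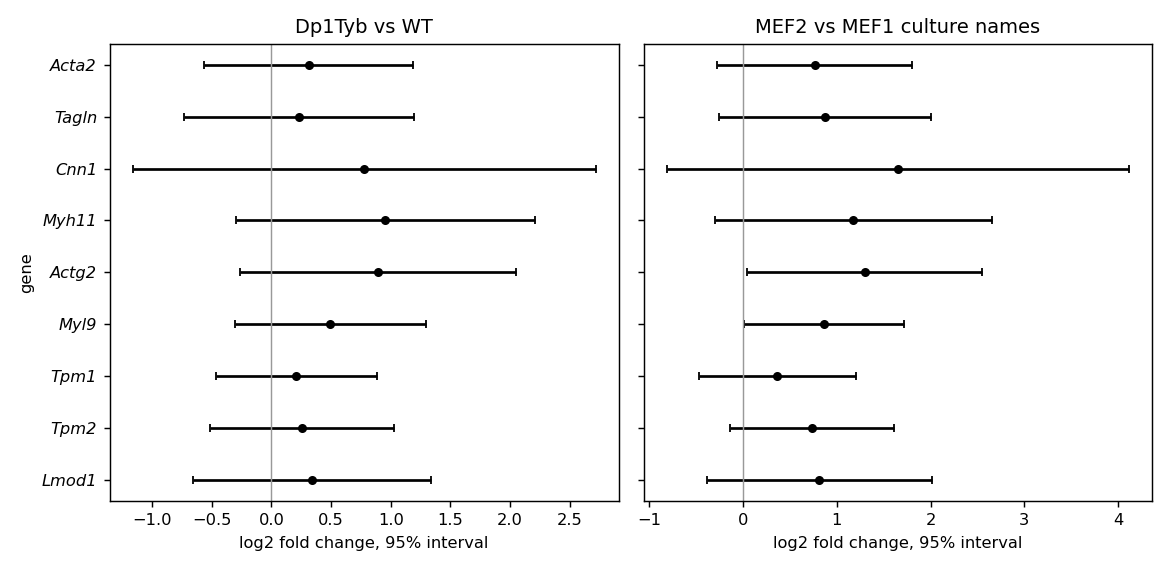
Log2 fold change with its 95% interval for the 9 tested contractile genes, Dp1Tyb vs WT on the left and MEF2 vs MEF1 cultures, adjusted for genotype, on the right. Every interval on the left crosses 0, and on the right those of *Actg2* and *Myl9* stay above 0 before adjustment over genes.

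Between MEF2 and MEF1 cultures, with the genotype in the model, the members had log2 fold changes from 0.36 (*Tpm1*) to 1.65 (*Cnn1*), with a median of 0.87 against 0.0074 over all tested genes. None of the 9 passed edgeR's test, against 20 of 15084 genes or 0.133%, and none passed DESeq2's. *Actg2*, at 1.30 with a standard error of 0.549, had an unadjusted p of 0.0436 and an adjusted p of 0.304 in edgeR. *Myl9*, at 0.87 with a standard error of 0.374, had an unadjusted p of 0.0471 and an adjusted p of 0.312 in edgeR. An unadjusted p below 0.05 was reached by 2371 of the 15084 genes, or 15.7%. The MEF1 set holds WT 1, in which all 9 members were lowest. Without it, when Dp1Tyb 1 alone stands for MEF1 and is assumed to vary like the rest, the fold changes were between 0.14 and 1.09 with a median of 0.39, and without Dp1Tyb 1 they were between 0.63 and 2.46 with a median of 1.52.

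The spread between cultures was the main feature of these genes. From the lowest to the highest culture, *Cnn1* covered a 24.1-fold range, *Myh11* 11.4-fold and *Actg2* 10.9-fold. *Tagln*, *Lmod1*, *Acta2* and *Myl9* covered 5.03- to 5.51-fold ranges, *Tpm2* 3.95-fold and *Tpm1* 2.75-fold. The median over all tested genes was 1.61-fold. The SD of log2 CPM within genotypes was between 0.49 (*Tpm1*) and 1.43 (*Cnn1*), against a median of 0.22 over all tested genes and of 0.17 over the 11170 genes with a mean count above 100. A larger SD was found in 1.08% of tested genes for *Cnn1*, in 8.29% for *Acta2* and in 16.8% for *Tpm1*. *Cnn1*, *Myh11* and *Actg2* thus varied most and *Tpm1* least, and all 9 had a biological coefficient of variation, 0.316 to 0.828, above the median of 0.172.

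**Figure D3:**
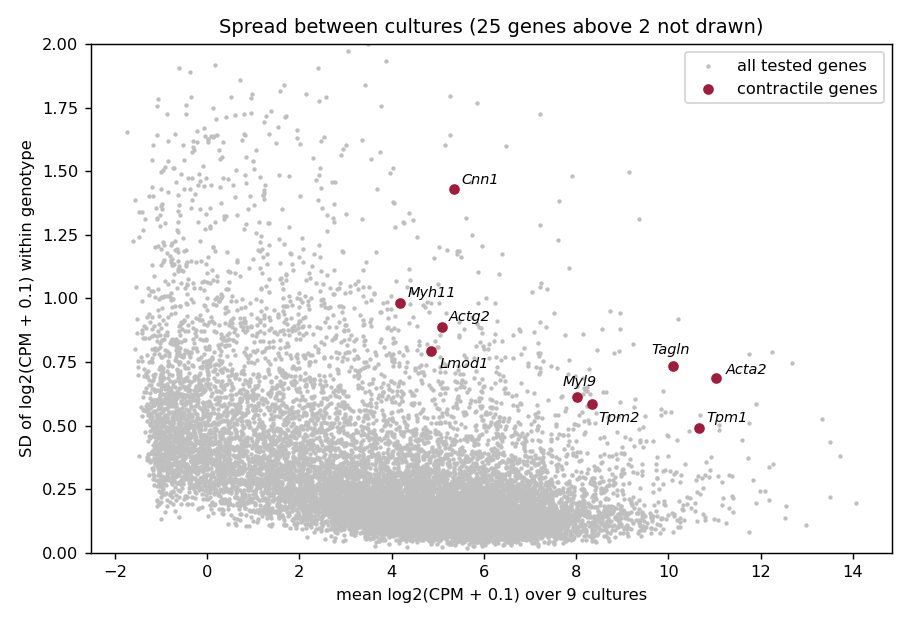
SD of log2(CPM + 0.1) within genotype against the mean log2(CPM + 0.1) over 9 cultures for all tested genes (grey) and the contractile genes (red), with 25 genes above an SD of 2 not drawn. All 9 contractile genes lie above the median SD of 0.22, from *Tpm1* at 0.49 to *Cnn1* at 1.43.

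In Dp1Tyb 2, the members were 2.06 to 7.56 times the mean of the other 4 Dp1Tyb cultures, with *Cnn1* at the top of this range and *Myh11* at the bottom. In WT 2, they were 1.64 to 3.88 times the mean of the other 3 WT cultures. These were the highest pair of cultures for 7 of 9 members, while *Myh11* and *Actg2* had Dp1Tyb 4 in second place. Dp1Tyb 3 was the lowest Dp1Tyb culture in 9 of 9. Dp1Tyb 2 also had the lowest summed fibroblast markers, 24141 CPM against 31766 to 48147 CPM in the other 8 cultures, and the lowest macrophage markers. The part of these in the contractile gene levels was not tested.

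To compare the profiles, each member was correlated with *Acta2* over the 9 cultures on log2 CPM, 8 relations in all. Pearson's r was between 0.822 (*Myh11*) and 0.980 (*Tagln*) with a median of 0.951, and Spearman's rho was between 0.867 and 0.983. All 8 relations passed the exact permutation test over 362880 pairings, with adjusted p values up to 0.00724 for r and up to 0.00451 for rho. With the genotype means subtracted, r was 0.845 or above in all 8. Leaving out Dp1Tyb 2 and WT 1, the cultures farthest from the median of *Acta2*, lowered r for *Myh11* to 0.450 (exact permutation test, adjusted p = 0.287) and for *Actg2* to 0.616 (exact permutation test, adjusted p = 0.167). By r, the other 6 relations stayed past the threshold. With rho, *Myh11* and *Actg2* passed at 0.929 and 0.893. But *Tagln*, at a rho of 0.714 (exact permutation test, adjusted p = 0.0881), and *Lmod1*, at 0.786 (exact permutation test, adjusted p = 0.0549), did not. Within the MEF2 cultures, 7 of 8 held by r, and *Myh11* had an r of 0.652 (exact permutation test, adjusted p = 0.113).

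The slopes show how far each gene followed *Acta2*. For each log2 unit of *Acta2*, *Cnn1* moved by 1.94 units, *Myh11* by 1.39 and *Actg2* by 1.32. *Lmod1*, *Tagln* and *Myl9* moved by 1.08, 1.02 and 0.92 units, and *Tpm2* and *Tpm1* by 0.83 and 0.64 units. Over the 36 pairs of members, r was between 0.725 and 0.989 with a median of 0.921. High correlations were common in these 9 cultures, and 10.1% of the other tested genes reached the r of *Myh11* with *Acta2*.

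**Figure D4:**
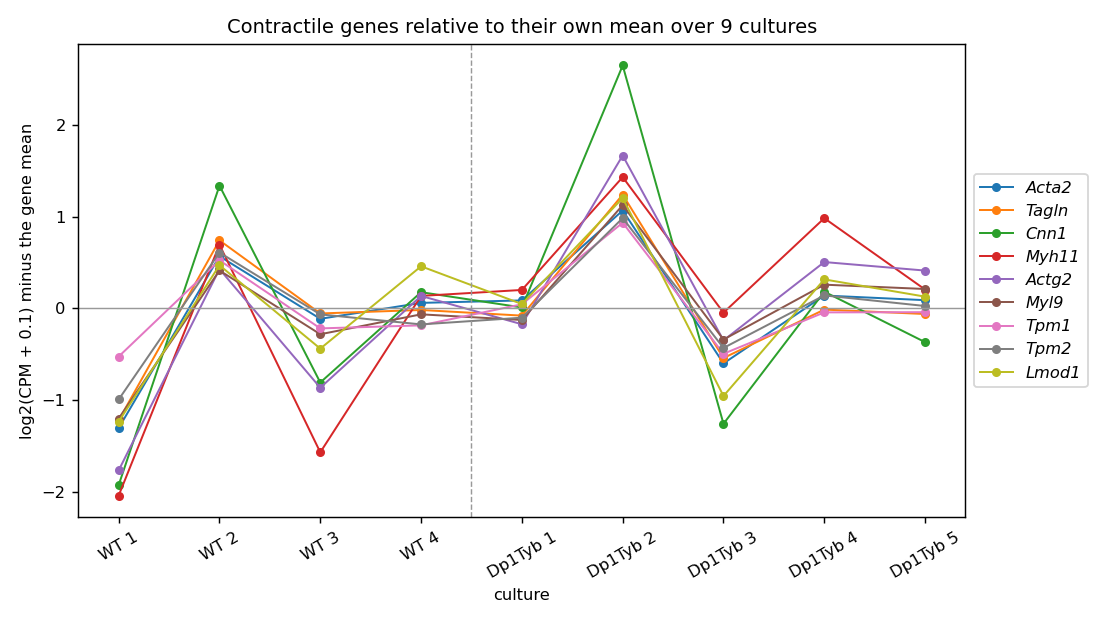
Log2(CPM + 0.1) of each of the 9 tested contractile genes minus its own mean over 9 cultures, in the 4 WT and 5 Dp1Tyb cultures. Within each genotype, every line peaks at WT 2 or Dp1Tyb 2 and is lowest at WT 1 or Dp1Tyb 3. *Cnn1* has the widest swing.

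Relatives of the members were compared with the same profile. The most counted relative in each family was *Actb* for the actins, *Tpm4* for the tropomyosins, *Myh9* for the myosin heavy chains, *Myl12a* for the light chains, *Tagln2* for the transgelins and *Cnn2* for the calponins. All 6 were lowest in WT 1 and highest in Dp1Tyb 2, over 2.08- to 2.45-fold ranges. *Myh9*, the heavy chain of non-muscle myosin IIA, went from 1083 to 2649 CPM, and its r with the mean profile of the members was 0.984. *Actb*, cytoplasmic beta-actin, went from 1344 to 2794 CPM with an r of 0.797. Their genotype fold changes were between -0.02 and 0.22 on the log2 scale, and none passed edgeR's or DESeq2's test (unadjusted p from 0.339 to 0.982 in edgeR). Among the other tested relatives, r was 0.922 for *Cnn3*, 0.921 for *Acta1*, 0.897 for *Tpm3* and 0.857 for *Actg1*. It was lower for *Myh14* at 0.498, *Myl12b* at 0.277, *Myh10* at 0.266 and *Tagln3* at -0.592. The leiomodin relative *Lmod3* stayed at or below 3 counts.

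Of 17 listed relatives, 14 were tested, and 8 of these had an r of 0.8 or above with the mean profile. Among all 14558 other tested genes, 1723 (11.8%) did so and 1531 (10.5%) were at -0.8 or below. Of 29 tested genes of a wider contractile list, which holds filament, adhesion and signalling proteins of smooth muscle, 15 were at 0.8 or above and 0 at -0.8 or below. In edgeR's test for the genotype 0 relatives and 0 genes of the wider list passed in either direction, and an unadjusted p below 0.05 was reached by 0 and 2 of them. For the culture set 0 and 0 passed, with 2 and 5 at an unadjusted p below 0.05. DESeq2 called 1 gene of the wider list, *Des*, for the genotype and 2, *Fhl2* and *Ppp1r14a*, for the culture set. Values were then looked up for single genes. *Kcnmb1*, the beta subunit of the calcium-activated potassium channel of smooth muscle, went from 0.283 CPM in WT 1 to 8.02 CPM in Dp1Tyb 2 with an r of 0.977. *Acta1*, the skeletal muscle actin, which SRF also drives, went from 2.04 to 223 CPM between the same cultures with an r of 0.921. *Des*, the muscle intermediate filament gene desmin, did not share the profile, with an r of 0.340. It had 11.2 ± 3.99 CPM (SD, n = 4) in WT and 28.5 ± 10.0 CPM (SD, n = 5) in Dp1Tyb, a log2 fold change of 1.35 and an adjusted p of 0.547 in edgeR (0.00253 unadjusted). These 3 genes were chosen after their values were seen.

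*Srf*, *Mrtfa*, *Mrtfb*, *Elk1* and *Elk4* covered narrower ranges than the members. Some other regulators of the same list did not, with 15.7-fold for *Meox1*, 7.29-fold for *Hey1* and 4.70-fold for *Meox2*. *Srf* itself was between 34.3 CPM in WT 1 and 68.4 CPM in Dp1Tyb 2, with an r of 0.788 with the mean profile. *Mrtfa*, the actin-sensing cofactor that carries SRF activity in fibroblasts, was between 43.1 CPM in Dp1Tyb 3 and 73.6 CPM in Dp1Tyb 2, with an r of 0.876, the only one of 19 tested regulators at 0.8 or above, against 11.8% of all other tested genes. *Twist1*, a mesenchymal transcription factor, was the only one at -0.8 or below, with an r of -0.824. *Mrtfb*, the close relative of *Mrtfa*, stayed between 38.7 and 47.9 CPM with an r of 0.226. The ternary complex factors *Elk1* and *Elk4*, which compete with MRTFs for SRF, had r values of -0.291 and -0.529 and 1.25- and 1.35-fold ranges. The median r of the 19 was -0.319. In edgeR's test 0 of 19 passed in either contrast, with 0 at an unadjusted p below 0.05 for the genotype and 6 for the culture set, for which DESeq2 called 2 (*Klf4* and *Meox2*).

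None of the TGF-beta ligands had an r of 0.8 or above with the mean profile. *Tgfb1* was between 34.9 and 51.9 CPM with an r of -0.111, *Tgfb2* between 33.1 and 85.5 CPM with an r of -0.540, and *Tgfb3*, the most abundant ligand, between 219 and 333 CPM with an r of 0.344. WT 1, the culture with the lowest contractile genes, had the highest *Tgfb2*. Of 30 genes of the TGF-beta pathway, all tested, 6 were at 0.8 or above and 5 at -0.8 or below. In edgeR's test 0 of 30 passed in either contrast, with 2 at an unadjusted p below 0.05 for the genotype and 6 for the culture set, for which DESeq2 called 3 (*Ccn1*, *Cthrc1* and *Smad3*).

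Several matrix genes of fibroblasts ran the other way, but not all. In the TGF-beta list, *Thbs1*, *Ltbp1* and *Fn1* had r values of 0.848, 0.841 and 0.593 with the mean profile. Of 12 fibroblast markers, 4 had an r of -0.8 or below, against 10.5% of all other tested genes. These 4 were *Dcn*, *Lum*, *Col3a1* and the receptor gene *Pdgfrb*. At 0.8 or above were 0 markers, against 11.8% of all other tested genes, and the median was -0.751. Picked from the 4 after their values were seen, *Dcn*, the collagen-binding proteoglycan decorin, went from 638 CPM in WT 1 down to 79.8 CPM in Dp1Tyb 2 with an r of -0.937. *Col3a1*, the alpha chain of type III collagen, went from 10715 CPM in WT 1 down to 2195 CPM in Dp1Tyb 2 with an r of -0.862. For *Dcn* and *Col3a1* the order of the cultures at both ends was thus the reverse of that of the contractile genes. The 3 fibroblast markers with an r above 0 were *S100a4* at 0.745, *Vim* at 0.70 and *Thy1* at 0.364. Macrophage markers had a median r of -0.564 over 6 genes with 0 of them at -0.8 or below. Of 5 tested pericyte markers 0 were at 0.8 or above and 2 (*Abcc9* and *Kcnj8*) at -0.8 or below. The other tested pericyte markers were *Rgs5* at 0.776, *Cspg4* at 0.702 and *Notch3* at -0.161.

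**Figure D5:**
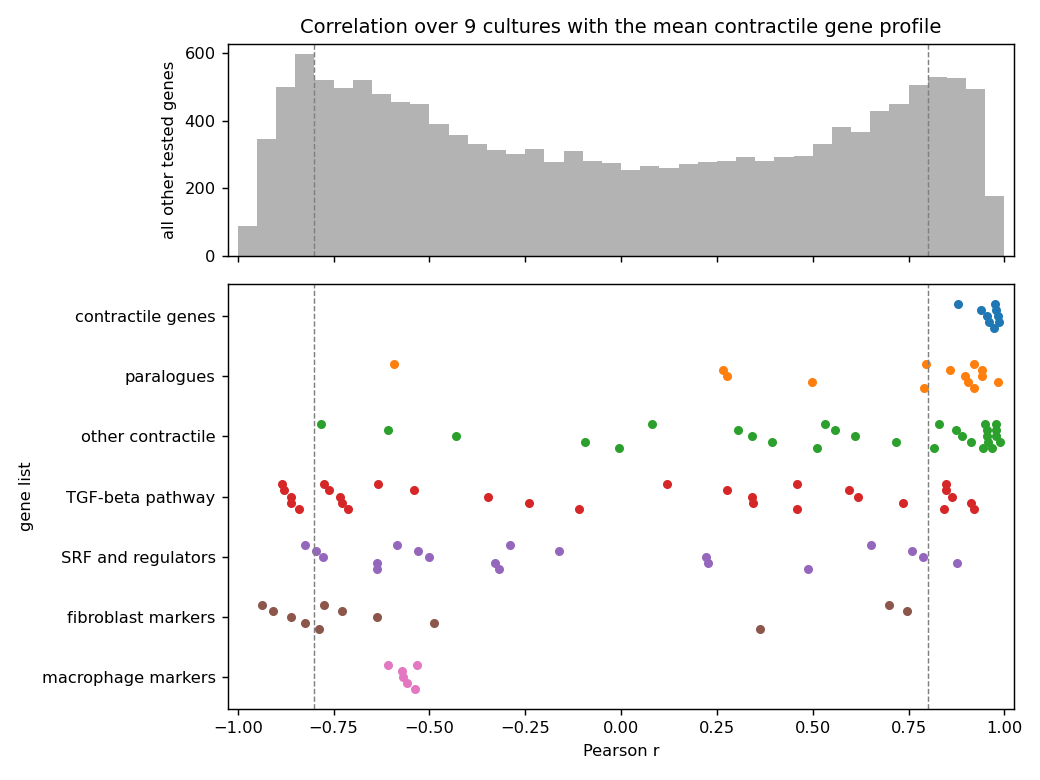
Pearson's r over 9 cultures with the mean profile of the contractile genes, for all other tested genes (histogram, number of genes) and for each tested gene of the named lists (points), with dashed lines at 0.8 and -0.8. The members are part of the mean they are compared with. Right of 0.8 lie 8 of 14 relatives and 15 of 29 genes of the wider contractile list, against 11.8% of all other tested genes. Left of -0.8 lie 4 of 12 fibroblast markers, against 10.5%.

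Over all tested genes, the 5 non-members most like the mean profile of the 9 members were *Dstn* (r = 0.990 over 9 cultures), *Filip1l* (0.989), *Polr3d* (0.989), *Sdc3* (0.987) and *Gys1* (0.986). *Dstn*, the actin-depolymerising factor destrin, went from 256 to 945 CPM, and *Polr3d*, a subunit of RNA polymerase III, from 34.5 to 52.0 CPM. Each of the 5 was lowest in WT 1 and highest in Dp1Tyb 2.

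Since the members moved together, their promoters were searched for the CArG box, the site that SRF binds. RefSeq windows of 300 bases, 250 before and 50 after the start of the gene (GRCm38.p6), were used for 6 members, *Acta2*, *Cnn1*, *Myl9*, *Tpm1*, *Tpm2* and *Lmod1*. A CArG box was found in 1 of 6, *Myl9*, and in 1.63% of all 32851 windows. Allowing 1 of its middle bases to differ, 2 of 6 held a match, *Myl9* and *Acta2*, as did 9.98% of all windows. Both strands were searched, and the boxes are shown in capitals within 30 bases of the gene's own strand, because boxes of this kind before *Acta2* are a textbook target of SRF. They begin 161 and 99 bases before the RefSeq start of *Myl9* (plus strand, chr2:156775293-156775322 and chr2:156775355-156775384). For *Acta2* they begin 84 and 34 bases before the RefSeq start (minus strand, chr19:34255438-34255467 and chr19:34255388-34255417). GENCODE M21 has other outermost starts, chr2:156775420 for *Myl9* and chr19:34255590 for *Acta2*. By these, the *Myl9* boxes lie closer to the start and the *Acta2* boxes lie after it.
Myl9, full match: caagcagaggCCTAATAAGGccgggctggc
Myl9, 1 base off: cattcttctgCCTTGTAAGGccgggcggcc
Acta2, distal, 1 base off: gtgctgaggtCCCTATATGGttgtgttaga
Acta2, proximal, 1 base off: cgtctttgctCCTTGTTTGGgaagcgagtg
A match is a stretch of letters only, and no binding was measured. *Myl9* and *Acta2* had an r of 0.968 with each other over the 9 cultures.

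No stretch of 100 bases, the read length, of any member's transcripts occurs in a transcript of another gene in GENCODE M21, so that reads of the related actins, tropomyosins and myosins can be told apart at this length. *Tagln* overlaps *Pcsk7* on the opposite strand, a gene with at most 1014 counts in a culture against 15084 or more for *Tagln*.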

How the data were processed

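Libraries were made with a stranded mRNA kit and sequenced as 100 base paired-end reads. The authors trimmed adapters with Trim Galore, mapped reads to GRCm38 with TopHat2 2.0.12, discarded reads with several alignments and deposited the htseq-count counts per Ensembl gene. The strand option and annotation release are not given in the sources used here. The authors also deposited normalised values and a table of their own DESeq2 1.6.3 fold changes and p-values, and neither was used.

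The members and gene lists were chosen with earlier results of these data known. Of 43629 listed genes, 42462 matched GENCODE M21 and 24467 had a count. Genotypes were compared on all 9 cultures with edgeR 4.0.16 in R 4.3.3 (TMM, filterByExpr, quasi-likelihood test, two-sided, Benjamini-Hochberg adjusted p below 0.05 over 14567 genes). The MEF2 against MEF1 contrast kept genotype as a covariate (15084 genes). Correlations used log2(CPM + 0.1) and exact permutation tests, two-sided (Python 3.11.15, scipy 1.17.1). RPKM used the summed exon length. The pairing check of same-numbered cultures is given with the alternatives. On data simulated for the genotype comparison over 14567 genes, 68 of 100 genes changed by 1 log2 unit and 90 of 100 changed by 2 units were recovered. The changed genes were drawn at random from all tested genes, whose median biological coefficient of variation was 0.172. The members had 0.316 to 0.828, so the recovery of genes that vary like the members was not measured. Alternatives were other size factors, filters, DESeq2 1.42.0, a replicate block, the culture set as a covariate, the MEF2 cultures alone each culture left out and, chosen after seeing the data, both cultures numbered 2 left out together. A gene at or below 3 counts was taken as at the floor, which covers counting error only. Genes named by rule were all members, the most counted relative in each family and *Srf* with its listed cofactors. The TGF-beta ligands, the 5 genes most like the members and listed genes past edgeR's threshold (there were none) were also named by rule. Added to these were listed genes that DESeq2 called, the other tested relatives and further listed genes and markers. Some of the added genes were picked after their values were seen.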

Additional observations from a re-analysis of the deposited data

Results flagged for a closer look

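Culture Dp1Tyb 2 stood apart from the other 4 Dp1Tyb cultures for 4 contractile genes by Dixon's criterion on CPM. This criterion compares the gap to the nearest culture with the whole range (critical value 0.710 for 5 cultures). Dp1Tyb 2 had 2614 CPM of *Tagln*, 256 CPM of *Cnn1*, 108 CPM of *Actg2* and 3088 CPM of *Tpm1*, with gaps of 0.819, 0.878, 0.735 and 0.732 of the range. No WT culture was marked. In all, 4 of 20 groups of values were marked. A chance rate of about 1 in 20 groups holds only for normally distributed values, which was not checked for CPM. Log2 CPM, on which high values lie closer together, was not used for the criterion, so the marks may depend on the scale. Since the 4 genes share the culture and the profile, they are not separate events.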

How the results depend on the processing

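No contractile gene passed the threshold in any fit tried, for genotype or culture set. Of the members' fold changes under the alternatives, 156 for the genotype and 126 for the culture set kept direction and side of the threshold, and 6 for the genotype changed sign, always with a culture left out: *Tagln* to -0.021 without WT 1, and without Dp1Tyb 2 the 5 genes *Cnn1*, *Tagln*, *Tpm1*, *Tpm2* and *Lmod1*. With one culture left out, these 5 were between -0.43 and 1.56, -0.18 and 0.59, -0.073 and 0.46, -0.028 and 0.56, and -0.012 and 0.55, and all members' fold changes were between -0.43 and 1.56 for the genotype and between 0.14 and 2.46 for the culture set.

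The number of all genes called for the genotype, 24, became 67 with DESeq2, 1 within the MEF2 cultures, 10 without both cultures numbered 2 and 2 to 26 with one culture left out. With the replicate block it was 0 in edgeR, with 863 genes and 3 members at an unadjusted p below 0.05 and a lowest adjusted p of 0.357 among members. The numbers were not taken to pair the cultures because the study's methods name no such pairing, and Dp1Tyb 5 has no partner. Of the same-numbered pairs, 3 of 4 had a correlation of deviations above 0.1 (0.264, 0.744, 0.032 and 0.376). Of 8 cultures, 4 correlated best with their own number. These values do not settle whether the numbers pair the cultures. For the culture set, 20 genes became 464 with DESeq2, 0 in edgeR with at least 10 counts in every culture (2205 at an unadjusted p below 0.05) and 2 to 43 with one culture left out. The causes were not tested. Other size factors shifted the median of all genes by less than 0.1 log2 units and turned no member. The count of members correlated with *Acta2* by Pearson's r was 6 to 8 of 8.

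The 95% intervals of the members' genotype fold changes were widest for *Cnn1*, from -1.16 to 2.72, and narrowest for *Tpm1*, from -0.46 to 0.88. Depth limits *Myocd* alone, at 3 to 10 reads per culture.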
